A study of Mus musculus with 7 samples.

Results

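The Wnt receptors and feedback targets described here are 10 genes chosen by name from the 30879 genes of the table: the receptor genes Lgr4, Lgr5 and Lrp6, the feedback genes Znrf3, Rnf43, Axin2 and Nkd1, and Ctnnb1, Tcf7l2 and Lef1, whose products carry the signal into the nucleus. All 10 were found in the table. They were read in single cells of the mouse thyroid and of thyroid follicular cell organoids (TFCOs). Thyroid follicular cells (TFCs) line the follicles of the gland and make its hormone, and TFCOs are cultures grown from them in a gel. Cells were sorted alive into 384-well plates and sequenced by SORT-seq, a plate-based method in which each RNA molecule carries a unique molecular identifier (UMI). The groups were thyroid tissue (2 samples), late passage TFCOs (3 samples) and early passage TFCOs (2 samples), all from wild-type C57BL/6 mice and all without treatment. The series describes the tissue as adult, and the study names female mice as the source of the organoids. Every TFCO sample was grown in basement membrane extract in a medium with 1% R-spondin 3 conditioned medium, A83-01, forskolin, EGF and FGF10, and the listed components hold no Wnt ligand. Tissue cells were never in this medium, so growth in culture, the medium and the passage cannot be told apart in a comparison of TFCOs with tissue. The series text speaks of 2 biological replicates for each kind of sample, while 3 samples are labelled late, and which of them share an animal or culture is not given, so the p-values may in part measure technical spread.

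Wnt ligands bind a Frizzled receptor together with Lrp6, and the signal keeps β-catenin, the product of Ctnnb1, from being degraded, so that it can act with Tcf7l2 and Lef1 at target genes. Znrf3 and Rnf43 are membrane ubiquitin ligases that remove Frizzled from the cell surface. R-spondins, bound by Lgr4 or Lgr5, take these ligases away and so raise the response to Wnt. Axin2 and Nkd1 are induced by the pathway in many tissues and dampen it, and Lgr5, Rnf43, Znrf3 and Lef1 are also known as its targets.

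Cells with at least 1000 UMIs were used, 2035 of 2590, with 235 to 360 cells a sample and a median depth of 3368 to 12380.5 UMIs a cell. All 1457 TFCO cells and 91 tissue cells were called TFC-like from their markers, and 14 of 14 TFC markers had UMIs in both. Summed, these markers reached a mean of 1394 UMIs per 10000 in TFC-like tissue cells and 154 in TFCO cells. The 91 tissue cells came from samples of very unequal depth, with 114647 UMIs in 43 cells of tissue 1 and 552087 UMIs in 48 cells of tissue 2, of which a single cell held 48.7% and the next 27.4%. Markers of other cell types were also higher in the TFC-like tissue cells than in the TFCO cells. Endothelial markers summed to 7.67 against 1.75 UMIs per 10000 (9 of 10 with UMIs in each, Egfl7 at 0 in the former and Cldn5 in the latter). Immune markers summed to 8.20 against 0.281 (8 of 10 with UMIs in each, Cd3e and Cd79a at 0 in the former, C1qa and C1qb in the latter). Their part in the differences below was not tested. Levels are means over cells of UMIs per 10000 UMIs of the cell, not scaled to gene length, so they are compared between samples and not between genes.

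The first check was whether a member's level followed the barcode of the well. Each well of a plate holds a primer with its own 8-base barcode, which lies directly upstream of the oligo-dT stretch, and the same 384 barcodes are used on every plate. A level that belongs to the cell should not recur in unrelated cells that share a barcode. For each gene, values of TFCO cells on different plates with the same barcode were correlated (2238 pairs of cells, no test). Of 19498 genes, 11.2% had a correlation above 0.1 and 21.5% above 0.05. Among the members, Lef1 with 0.326 and Tcf7l2 with 0.208, lay above 0.1, at percentiles 97.4 and 94.9 of all genes. Lgr5 had 0.0593, and the other 7 members lay between -0.0206 for Lrp6 and 0.0282 for Axin2. Between late and early plates alone the values were 0.323 for Lef1, 0.214 for Tcf7l2 and 0.0729 for Lgr5. In tissue cells they were 0.281, 0.0563 and -0.0183, while Rnf43, at 0.0215 in TFCO cells, reached 0.178 in tissue from only 35 cells with a UMI.

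Lef1 owed its correlation to 1 barcode. Barcodes were ranked by the level in late cells, among the 342 carried by at least 2 late cells, and the first 3 for Lef1 are printed 5′ to 3′ with the last 3 bases, those next to the oligo-dT, in capitals, to show that the first stands alone.
Lef1 barcode 1: tctggGCA
Lef1 barcode 2: accacGAT
Lef1 barcode 3: atcggTTG
The first barcode was carried by 1 cell in each of the 7 samples, and Lef1 was found in all 7 of them. The UMI counts were 3, 7 and 4 in the late cells, 32 and 21 in the early cells, and 4 and 8 in the tissue cells. No cell on any other barcode had more than 7. These 7 cells, 0.344% of the 2035, held 79 of the 325 Lef1 UMIs, or 24.3%. The tissue cells were an endothelial-like cell of 1936 UMIs and a TFC-like cell of 1313 UMIs, so the recurrence did not follow the cell class. Without this barcode the correlation of Lef1 fell to 0.0183 over 2228 pairs. On the second barcode the 3 late cells held 2 UMIs, the early cell none and the 2 tissue cells 1.

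Tcf7l2 was high on several barcodes, some of which share their last 3 bases. The first 4 in its late ranking, and 3 more of the first 10 that share an ending with one of them, are shown.
Tcf7l2 barcode 1: acctcAGC
Tcf7l2 barcode 2: gaacaGCA
Tcf7l2 barcode 3: gcacgTCA
Tcf7l2 barcode 4: aacacGCA
Tcf7l2 barcode 6: ttcccTCA
Tcf7l2 barcode 7: acaagGCA
Tcf7l2 barcode 8: atgccTCA
On the first 4, the late level was 15.4, 10.7, 10.3 and 7.10 UMIs per 10000, the early level 23.8, 19.2, 11.7 and 10.5, and the tissue level 27.9, 2.86, 24.7 and 7.72. These barcodes were ranked in late cells alone, so the early and tissue values did not enter the ranking. Each early or tissue value rests on 1 or 2 cells. Tcf7l2 stood out by a correlation over TFCO cells that includes pairs of late and early cells. Its early values are therefore not separate from the choice of the gene. Over all first 10, the early level was 7.23 on 14 cells against 1.24 on the rest, and the tissue level 9.80 on 13 cells against 1.62. When barcodes were grouped by their last 3 bases, TCA, AGC and GCA of 62 endings had the highest Tcf7l2 level in late cells. They were also the 3 highest in early cells, while in tissue cells they ranked 1, 9 and 6. These endings include the barcodes shown above, so their level is not separate from the ranking of barcodes. Whether the other barcodes with these endings were raised was not tested. Cells on these 3 endings were 6.38% of late cells and held 22.2% of late Tcf7l2 UMIs. They were 6.02% of early cells and held 13.9%, and they were 7.09% of tissue cells and held 14.1%. In the same cells Ctnnb1 was not raised, with 5.22 against 5.00 in late and 3.05 against 3.89 in early cells, nor was Lgr5, with 0.743 against 1.04 and 1.44 against 1.82. Without the first 4 barcodes the correlation of Tcf7l2 was 0.113.

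For Lgr5, whose correlation was slightly over 0.05, the highest barcodes of late cells were not high in early cells. Its 10 barcodes with the highest level in late cells, led by gtgttCAG, had an early level of 1.80 against 1.79 on all others and a tissue level of 0.649 against 0.725. For Ctnnb1 the early values were 3.09 and 3.86. Early values were higher on the first 10 late barcodes for Lgr4 (2.29 against 1.28), Znrf3 (1.24 against 0.603) and Axin2 (0.304 against 0.0871), on 15 to 19 cells, while the tissue values were lower (0.109 against 0.266 for Lgr4, and 0 on these barcodes for Znrf3 and Axin2). Gene length and barcode dependence went together over the table, since 22.3% of genes spanning at least 100 kb had a correlation above 0.1 and 9.15% of shorter genes did. Among the members this held in part: Tcf7l2 (191.8 kb, the longest) and Lef1 (113.9 kb) were above 0.1, while Znrf3 (168.5 kb), Lgr5 (137.5 kb) and Lrp6 (120.5 kb) were not.

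**Figure D1:**
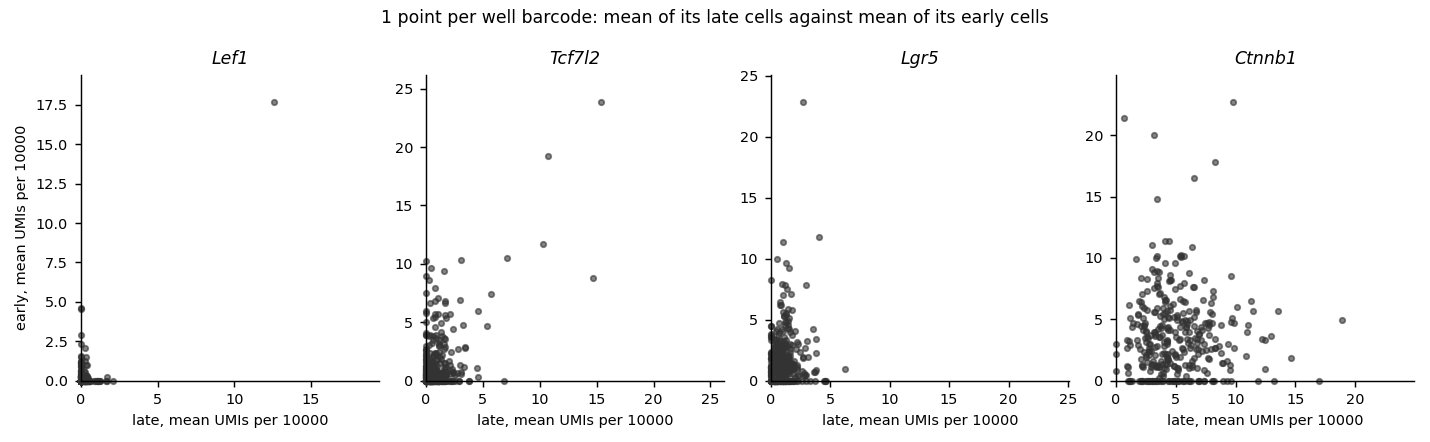
Each point is 1 of 343 well barcodes, with the mean level of its late cells on the x axis and of its early cells on the y axis (mean UMIs per 10000, linear axes), for Lef1, Tcf7l2, Lgr5 and Ctnnb1. A single barcode stands apart for Lef1 and several lie high on both axes for Tcf7l2, whereas high points of Lgr5 and Ctnnb1 are mostly high on 1 axis.

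Among the receptors, Lrp6 was higher in TFCO cells than in TFC-like tissue cells, and for Lgr5 and Lgr4 no sample of the groups overlapped but the test was not passed. Lrp6 (chr6:134446476-134566965, minus strand, GRCm38) encodes the Wnt co-receptor. Its level was 0.803 and 0.517 in tissue, 2.56, 2.01 and 2.22 in late TFCOs and 2.09 and 2.08 in early ones. Every TFCO sample lay above both tissue samples, as was the case for 35.9% of the 12109 genes tested. The difference was 0.94 (SE 0.25) on the log2(mean UMIs per 10000 + 1) scale, with an adjusted p of 0.0466 (limma, Benjamini-Hochberg over all genes tested). In this comparison 5.05% of genes were called, 2.75% as higher in TFCOs and 2.3% as lower (27.5% at an unadjusted p under 0.05), and of the 9 members tested 2 were called, both higher. Lrp6 lost its call without early 1 (adjusted p = 0.0703) or early 2 (adjusted p = 0.0502), with UMIs summed over cells (adjusted p = 0.291) and in 4 other of 18 alternatives. Endothelial-like cells of the tissue had 0.755 and 0.570, with no difference from TFC-like cells beyond the spread (0.0049, SE 0.24).

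Lgr5 (chr10:115450311-115587780, minus strand) marks adult stem cells in several epithelia. Its TFC-like level was 0.263 and 0.331 in tissue, 0.903, 0.875 and 1.37 in late TFCOs and 1.44 and 2.06 in early ones. Both tissue values rest on few molecules, 2 UMIs in tissue 1, under the floor of 3 UMIs used here, and 23 in tissue 2, of which a single deep cell held 13. The difference was 0.86 (SE 0.24), with an adjusted p of 0.0545 in limma, and it passed in 10 of 18 alternatives, among them without late 1, late 2 or late 3 (adjusted p = 0.0380, 0.0366 and 0.0447) and with equal weights for all samples (adjusted p = 0.0029). Over all genes, 611 of 12109 were called in the main fit and 4184 of 12109 with equal weights. Without late 1, late 2 or late 3 the counts were 832, 901 and 655. The gene Lgr5 overlaps A930009A15Rik on the other strand.

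Outside the follicular class, however, Lgr5 was as high in tissue as in some organoid samples. Immune-like cells, which are not known to express it, had 0.897 and 0.581 UMIs per 10000, and endothelial-like cells 0.752 and 0.631. Mural-like cells had 0.987 and 1.09. Late 1 (0.903) was level with the higher immune-like value and late 2 (0.875) below it. Both were below the mural-like values, whereas late 3 and both early samples lay above all 6 values of these classes. Stromal-like cells had 0.836 and 2.98, and the second lay above every TFCO sample. It rests on 10 UMIs in 7 cells, 9 of them in 1 cell. At equal depth, with each cell thinned to 1000 UMIs, Lgr5 was found in 7.49%, 6.11% and 13.2% of late cells and 13.6% and 16.9% of early cells. Over both tissue samples the same share was 3.45% in immune-like and 6.74% in endothelial-like cells. Before thinning, 59.6% of TFCO cells and 39.7% of immune-like tissue cells had an Lgr5 UMI, at median depths of 5011 to 12380.5 UMIs in the TFCO samples and of 6307 and 5515 UMIs in the immune-like cells. The immune-like share rests on 1 of 33 cells in tissue 1 and 1 of 25 in tissue 2, too few to place late 1 and late 2 above it. Late 2 was below the endothelial-like share. In mural-like cells the share at equal depth was 6.67% in tissue 1 and 6.45% in tissue 2. Neither late 1 nor late 2 was above the higher immune-like level beyond its spread, and the part of free RNA in these values was not tested.

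Lgr4 (chr2:109917647-110014257, plus strand), the more widely expressed R-spondin receptor, differed less from tissue but stood further above the other cell types of the gland. The TFC-like level was 0.306 and 0.793 in tissue, 1.66, 1.26 and 1.58 in late TFCOs and 1.54 and 1.15 in early ones. The groups did not overlap, and the difference of 0.66 (SE 0.23) did not pass (adjusted p = 0.104 in limma). It passed in 3 of 18 alternatives, with a filter of 0.5 (adjusted p = 0.0319 in limma), with equal weights for all samples (adjusted p = 0.0119 in limma) and, with the same weights, without tissue 2. The last leaves a single tissue sample. Over all genes, 1171 of 4294 were called with that filter and 4184 of 12109 with equal weights, beside 611 of 12109 in the main fit. In tissue 2, 1 deep cell held 31 of 70 Lgr4 UMIs, but each cell counts equally in the level. Lgr4 was low in immune-like cells (0.0301 and 0.207) and in endothelial-like cells (0.163 and 0.189). Among the named tissue classes with an Lgr4 UMI, the highest value was 0.901, in mural-like cells of tissue 1 from 7 UMIs. The lowest TFCO value lay above it. Stromal-like cells had no Lgr4 UMI and are too shallow to be placed, as 3 UMIs would give 0.331 and 1.31 there.

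A UMI of Lgr4 or Lgr5 was found in 65.1%, 85.3% and 79.8% of late cells and in 81.3% and 73.8% of early cells. Of the 1457 TFCO cells, 510 had UMIs of both, 253 of Lgr4 alone, 359 of Lgr5 alone and 335 of neither. A share of cells with a UMI depends on depth, which differed between the samples, and does not count the cells that express a receptor.

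**Figure D2:**
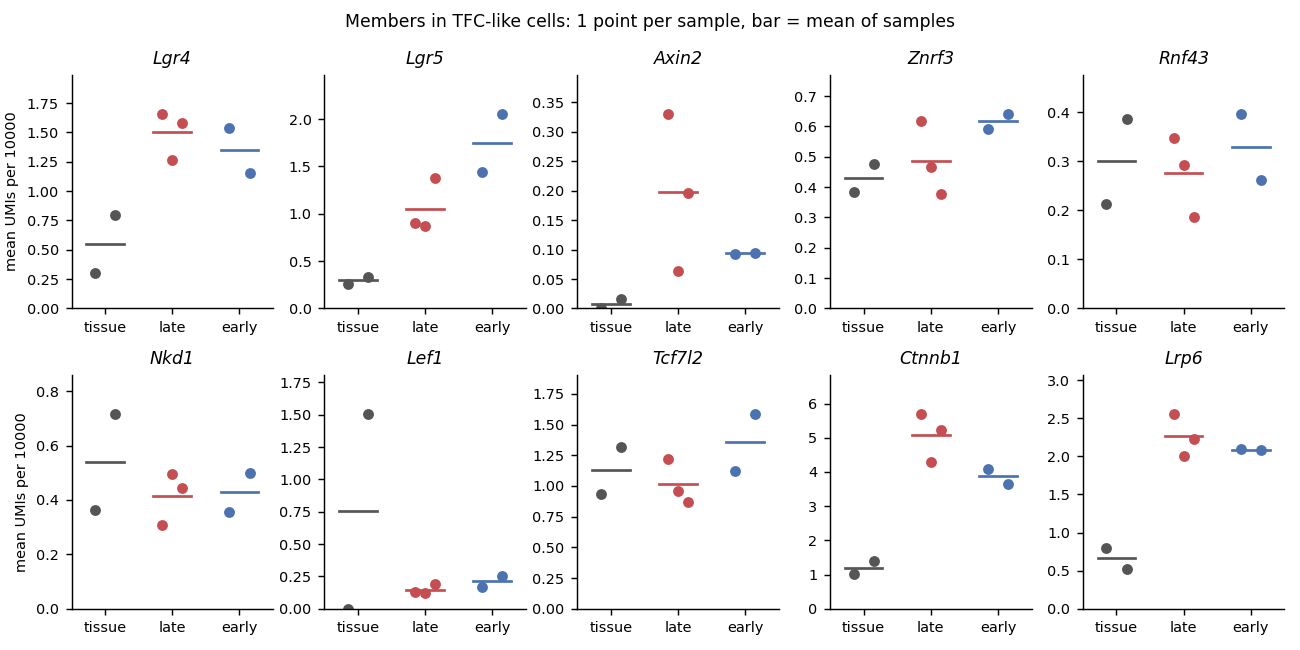
Mean UMIs per 10000 in TFC-like cells for each of the 10 members (y axis, starting at 0), with 1 point per sample and a bar at the mean of the samples, for tissue (n = 2), late (n = 3) and early (n = 2) samples. Ctnnb1, Lrp6, Lgr4 and Lgr5 are higher in every TFCO sample than in both tissue samples, and the high Lef1 value of tissue 2 rests on 1 cell.

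Of the feedback genes, none of the 3 that were tested (Znrf3, Rnf43 and Nkd1) differed between TFCOs and tissue beyond the spread of the samples, and Axin2 was just under the filter on the mean of the 3 group means and was not tested. Znrf3 (chr11:5276324-5444847, minus strand) had 0.382 and 0.477 in tissue, 0.618, 0.467 and 0.376 in late TFCOs and 0.592 and 0.642 in early ones, a difference of 0.12 (SE 0.17). Rnf43 (chr11:87662722-87735539, plus strand) had 0.213 and 0.387 in tissue, 0.348, 0.293 and 0.186 in late TFCOs and 0.397 and 0.261 in early ones, a difference of 0.0036 (SE 0.14). For both ligases the tissue and TFCO values overlapped. Nkd1 (chr8:88521354-88594884, plus strand), an inhibitor that binds Dishevelled, had 0.364 and 0.717 in tissue, 0.310, 0.495 and 0.444 in late TFCOs and 0.356 and 0.499 in early ones, a difference of -0.11 (SE 0.17). In tissue 1 the TFC-like values of Znrf3, Rnf43 and Nkd1 rest on 5, 2 and 4 UMIs. In tissue 2 a single cell held 43 of 76 Nkd1 UMIs, though each cell counts equally in the level. Rnf43 overlaps 1110028F11Rik and Nkd1 overlaps Gm45496 on the same strand, so some of their UMIs may have been assigned to the neighbour or the reverse.

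Axin2 (chr11:108920349-108950783, plus strand), which is widely used as a readout of the pathway, was the rarest member, with 211 UMIs in 136 of 1457 TFCO cells. It had no UMI in TFC-like cells of tissue 1, where 3 UMIs would give 0.262 per 10000, and 4 UMIs in tissue 2 (0.0167). The TFCO samples had 0.331, 0.0642 and 0.196 in late and 0.0929 and 0.0938 in early passage. Late 1 was the highest and late 2 the lowest of the 5, so late TFCOs spanned the early ones. In tissue 1, 4 of the 5 TFCO values would not have been detectable at this depth. In tissue 2, 3 UMIs would give 0.0543 of the summed UMIs, a scale on which the few deep cells weigh most. With UMIs summed over cells, tissue 2 had 0.0725, close to late 2 with 0.0746, the lowest TFCO sample, and late 1 was highest with 0.352. The 4 UMIs of tissue 2 lay in 3 cells, so this depth does not place tissue 2 below the TFCO samples. Immune-like cells had 0.190 and 0.196, a level within the range of the TFCO samples. Gm11670 overlaps Axin2 on the other strand.

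Ctnnb1 (chr9:120929216-120960507, plus strand) differed from tissue by more than the other members tested on the scale with a pseudocount of 1. With a pseudocount of 0.1 the difference was 1.80 for Ctnnb1 and 1.86 for Lgr5, whose ratio of means was also higher (4.48). Its level was 1.02 and 1.38 in TFC-like cells of tissue, 5.70, 4.28 and 5.22 in late TFCOs and 4.07 and 3.66 in early ones, so the groups were far apart, with a ratio of means of 3.81. The difference was 1.30 (SE 0.33, adjusted p = 0.0415 in limma). It lost the call without early 1 (adjusted p = 0.0677), with at least 2000 UMIs a cell (adjusted p = 0.102) and with UMIs summed over cells (1.02, adjusted p = 0.222), where 1 cell of tissue 2 holds 81 of 128 UMIs. The gene overlaps Ulk4 and 4930593C16Rik on the other strand, and whether UMIs were counted by strand is not given in the sources used here. Ctnnb1 had a UMI in 83.9% of TFCO cells and in 24.2% of TFC-like tissue cells, or in 33.8% and 8.79% after thinning to 1000 UMIs.

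Tcf7l2 (chr19:55741820-55933654, plus strand), a β-catenin partner at DNA, did not differ, with 0.938 and 1.32 in tissue, 1.22, 0.959 and 0.868 in late TFCOs and 1.12 and 1.59 in early ones and a difference of 0.03 (SE 0.23). Ppnr overlaps it on the same strand. Without its 10 highest barcodes the difference was -0.04 (SE 0.24). Lef1 (chr3:131110471-131224356, plus strand), a factor of the same family known from lymphocytes, had no UMI in tissue 1, where 3 UMIs would give 0.262, and a level of 1.51 in tissue 2, against 0.122 to 0.253 in the 5 TFCO samples. The tissue 2 value fell to 0.242 without the cell on the barcode shown above, and the level of TFCO samples to 0.0950 to 0.188. The difference of -0.43 (SE 0.22, adjusted p = 0.231 in limma) became 0.0072 (SE 0.090) without the 10 highest barcodes, an alternative chosen after the values were seen. With equal weights and 1 tissue sample left out it passed in opposite directions, at -1.09 without tissue 1 (adjusted p = 6.1e-05 in limma) and at 0.24 without tissue 2 (adjusted p = 0.0116). Gm42449 overlaps Lef1 on the same strand and Gm43352 on the other.

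**Figure D3:**
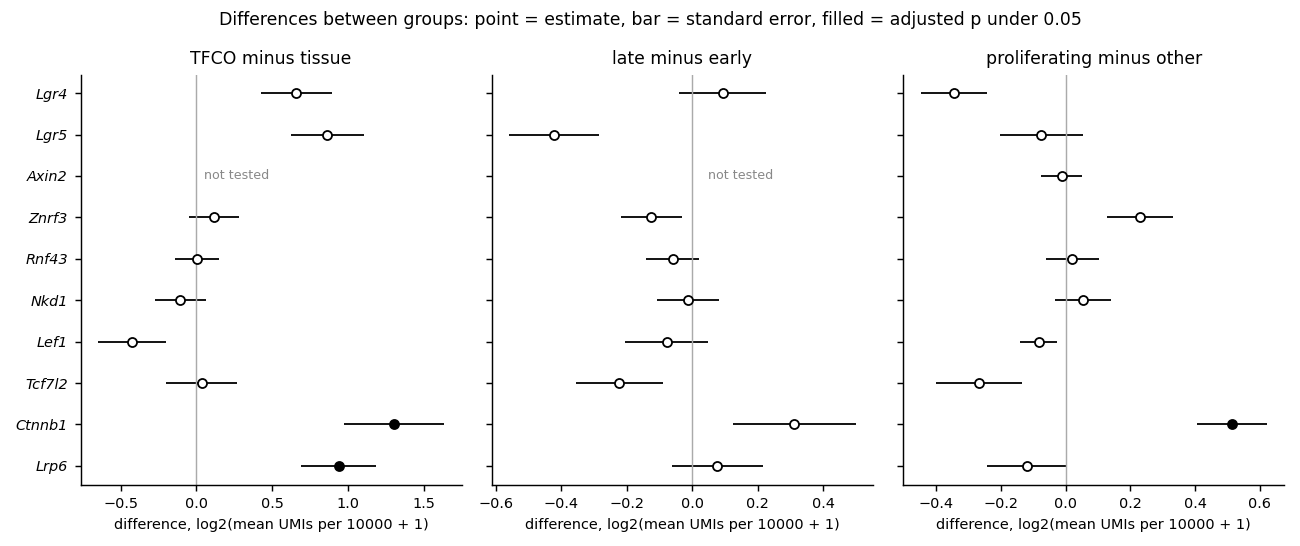
Differences in log2(mean UMIs per 10000 + 1) for the 10 members (rows of the plot), as TFCO minus tissue, late minus early and proliferating minus other TFCO cells, with bars of 1 standard error and filled points for an adjusted p under 0.05. Filled points are seen for Ctnnb1 and Lrp6 against tissue and for Ctnnb1 in proliferating cells, and Axin2 was not tested in 2 of the 3 comparisons.

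The next question was which cells of the gland carry the members, asked within the 2 tissue samples against TFC-like cells. Endothelial-like cells (150 and 132, of which 105 lie in a cluster led by predicted genes such as Gm10719) had more Ctnnb1, 3.76 and 3.88 UMIs per 10000 against 1.02 and 1.38, a difference of 1.13 (SE 0.25, adjusted p = 0.0229 in limma). β-Catenin is also a component of cell junctions, which endothelial cells form, but a link to the difference was not tested. Ctnnb1 was the 1 call of 10 members tested, where 4.06% of 16418 genes were called with 2.61% as higher and 1.45% as lower. The call was kept in 3 alternatives and lost in 4, with UMIs summed over cells (0.71, adjusted p = 0.240), at equal depth, with a pseudocount of 0.1 and after centring. The level in endothelial-like cells lay within the range of the TFCO samples. Nkd1 was low in endothelial-like cells, 0.0347 and 0.0551 against 0.364 and 0.717, but the difference of -0.55 (SE 0.21) did not pass (adjusted p = 0.237).

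In mural-like cells (30 and 31), the contractile cells around vessels, no member passed, where 4.89% of 16418 genes were called, 3.21% as higher and 1.68% as lower, and 2769 genes had an unadjusted p under 0.05. Tcf7l2 came nearest, with 3.19 and 2.88 against 0.938 and 1.32, a difference of 0.93 (SE 0.27, adjusted p = 0.0725 in limma). It passed in 4 of 10 alternatives, with a filter of 0.5 (adjusted p = 0.0315), UMIs summed over cells (adjusted p = 0.0148), at least 2000 UMIs a cell (adjusted p = 0.0146) and without its 10 highest barcodes (adjusted p = 0.0479). Over all genes, 803 of 16418 were called in the main fit and 948 of 7605 with that filter. The counts were 743 of 16221 with summed UMIs and 1565 of 15838 with at least 2000 UMIs. Lgr5 had 0.987 and 1.09 in mural-like cells and 0.836 and 2.98 in stromal-like cells (15 and 7 cells, 9 of the 10 UMIs of the second in 1 cell). Rnf43 and Lef1 had no UMI in mural-like cells of either sample, where 3 UMIs would give 0.263 and 0.255 per 10000.

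Lef1 was found in immune-like cells at 0.467 and 0.534 and in endothelial-like cells at 0.521 and 0.280. The endothelial-like value of tissue 1 includes the cell on the first Lef1 barcode shown above. That cell held 4 of the 38 Lef1 UMIs, at 20.7 per 10000. In order of the mean of the tissue samples, Lgr4 was highest in TFC-like cells (0.549) and mural-like cells (0.504), which did not differ beyond their spread, then endothelial-like (0.176) and immune-like (0.119) cells. Stromal-like cells had no Lgr4 UMI, but 3 UMIs would give 0.331 and 1.31 there, so they have no place in this order. Lgr5 had another order, with stromal-like (1.91) and mural-like (1.04) above immune-like (0.739), endothelial-like (0.691) and TFC-like (0.297) cells. Neither order was tested as such, and no difference of Lgr4 or Lgr5 between TFC-like cells and endothelial-like or mural-like cells passed.

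**Figure D4:**
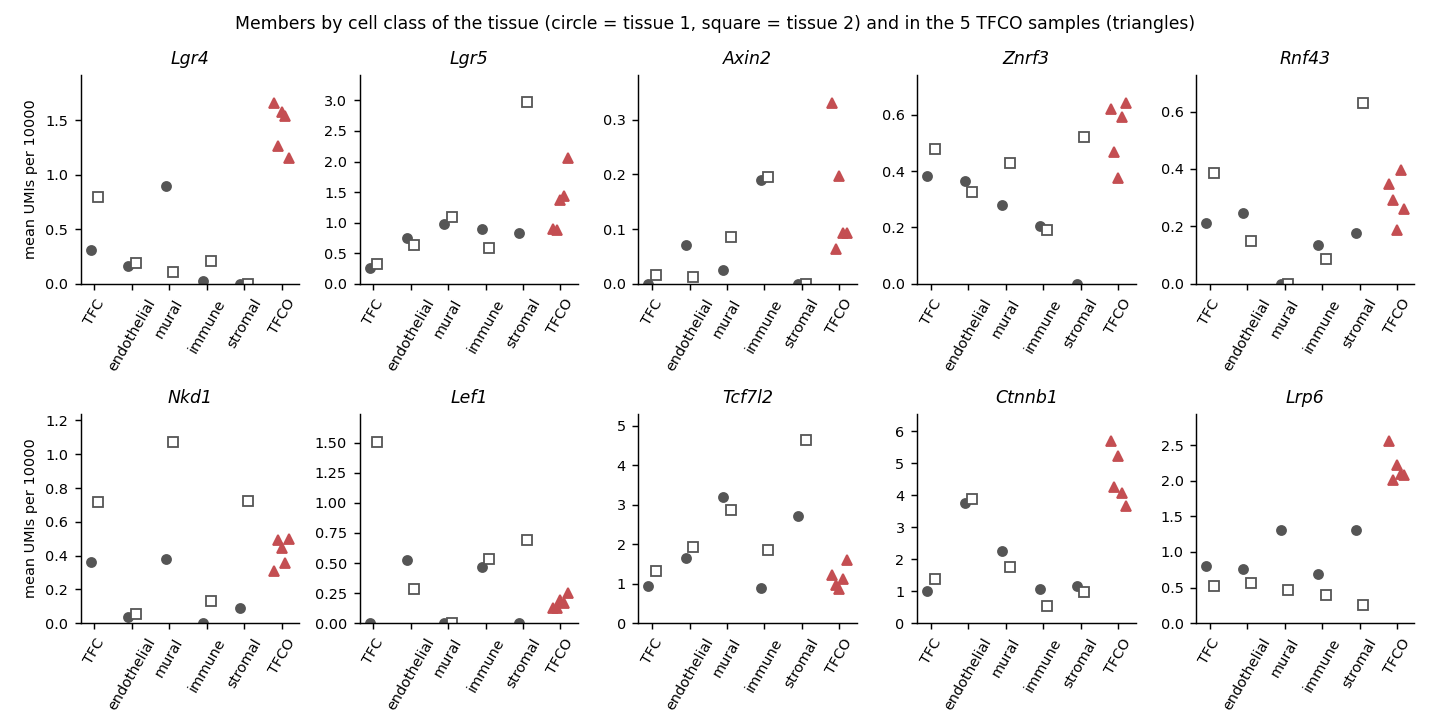
Mean UMIs per 10000 of the 10 members by cell class of the tissue (grey circle for tissue 1, open square for tissue 2) and in the 5 TFCO samples (red triangles), y axes starting at 0. The points of Lgr4 and Lrp6 are higher for TFCO samples than for every tissue class shown. Stromal-like cells had no Lgr4 UMI and are too shallow to be placed for that gene. Lgr5, Axin2 and Ctnnb1 of TFCO samples overlap with classes other than TFC-like cells.

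Late and early passage TFCOs were compared to ask whether the members change with time in culture, and none of the 9 tested passed, where 2 of 12109 genes did (0.0165%) and 2336 had an unadjusted p under 0.05. Lgr5 was lower in late samples, 0.903, 0.875 and 1.37 against 1.44 and 2.06, without overlap, as in 24.2% of genes. The difference was -0.42 (SE 0.14, adjusted p = 0.165 in limma), and it was -0.59 with an adjusted p of 0.0352 without early 1, which leaves a single early sample. Ctnnb1 was higher in late samples, also without overlap, which 15.3% of genes showed in this direction, with a difference of 0.31 (SE 0.19, adjusted p = 0.364). The other 7 ranged from -0.22 for Tcf7l2 to 0.09 for Lgr4.

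Within the organoids, Lgr5 varied between clusters made without the members. Its highest level, 3.00 (range 2.34 to 3.67 over 2 samples), was in a cluster of 243 cells of which 213 came from early 2, and in the other 7 clusters the mean over samples ran from 0.906 to 1.52. That cluster had the lowest Ctnnb1, 2.28 (1.28 to 3.27), against 3.46 to 6.54 in the others. Within early 2, Lgr5 was 2.34 in the 213 cells of the cluster and 1.46 in the other 100, and within early 1 it was 3.67 in 12 cells, from 8 UMIs, and 1.32 in the other 223. Ctnnb1 was 3.27 against 4.49 and 1.28 against 4.22. The cluster was led by predicted genes such as Gm28653 and Gm10801, and its cells were shallower, with a median of 3836 against 5740.5 UMIs in early 2 and 1488.5 against 11803 in early 1.

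Proliferating TFCO cells, a cluster defined by Mki67, Ccnb2, Cenpf and other cell cycle genes (15, 68 and 23 late and 48 and 14 early cells), had more Ctnnb1 than other cells of the same sample. The level of Ctnnb1 was 7.18 against 5.62, 5.90 against 3.90 and 7.67 against 4.97 in the late samples, and 6.22 against 3.52 and 5.69 against 3.57 in the early ones. It was higher in 5 of 5 samples, which 7.81% of 14232 genes were, and the difference was 0.51 (SE 0.11, adjusted p = 0.0212 in limma with the sample as a term). Of the 10 members this was the 1 call, where 2.42% of genes were called and 1.9% as higher and 0.52% as lower. The call was lost in 6 of 14 alternatives, among them without late 2, late 3 or early 1 (adjusted p = 0.0901, 0.0936 and 0.119) and with no filter on low genes (adjusted p = 0.109). It was also lost when proliferating cells were picked cell by cell from their markers (difference 0.37, adjusted p = 0.0849) and at equal depth (difference 0.39, adjusted p = 0.469), the median depth of the proliferating cluster being 12659 UMIs.

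Lgr4 moved the other way, with 0.994 against 1.70, 1.09 against 1.30 and 0.810 against 1.66 in the late samples and 1.05 against 1.66 and 0.853 against 1.17 in the early ones. It was lower in 5 of 5 samples, as were 7.54% of genes, and the difference of -0.35 (SE 0.10) did not pass (adjusted p = 0.111 in limma). Znrf3 was higher in 4 of 5 samples, with a difference of 0.23 (SE 0.10, adjusted p = 0.315), and Tcf7l2 was lower in 4 of 5, with a difference of -0.27 (SE 0.13, adjusted p = 0.365). Lgr5 was higher in 3 of 5, with a difference of -0.08 (SE 0.13). A test of whether these differences depended on passage gave no call among 14232 genes, of which 732 had an unadjusted p under 0.05, and for Ctnnb1 the effect was 0.45 in late and 0.61 in early samples (SE of the difference 0.23, adjusted p = 0.945 in limma).

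**Figure D5:**
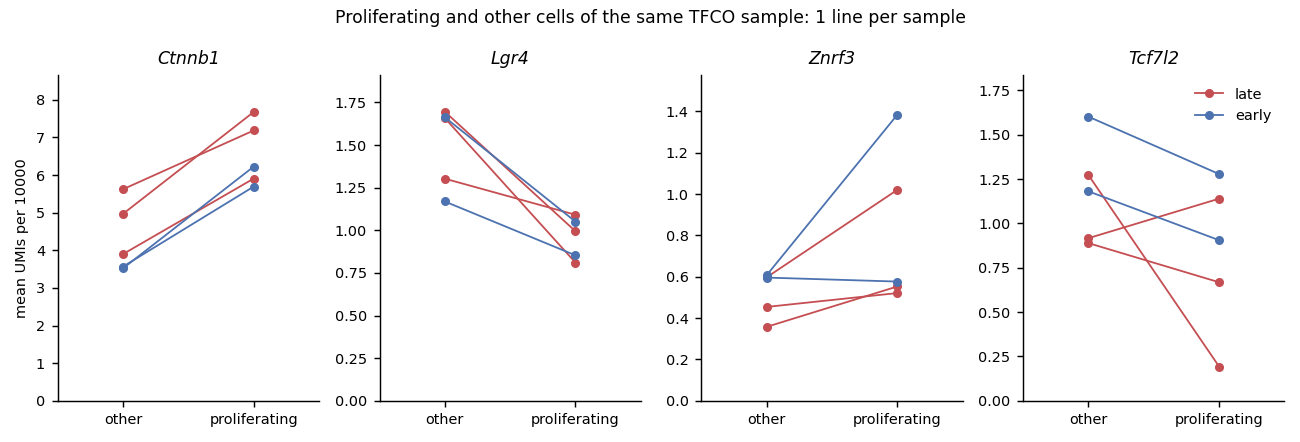
Mean UMIs per 10000 of Ctnnb1, Lgr4, Znrf3 and Tcf7l2 in other and in proliferating cells of each TFCO sample (y axes starting at 0), with 1 line per sample, red for late and blue for early. All 5 lines rise for Ctnnb1 and fall for Lgr4, while Znrf3 and Tcf7l2 each have 1 line in the other direction.

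The rest of the pathway was read from 8 lists of 90 other genes, of which 87 were in the table. Of 19 Wnt ligands, 5 were abundant enough to be tested between TFCOs and tissue, and Wnt4 was lower in TFCOs. It had 1.27 and 1.47 in TFC-like tissue cells and 0.0381 to 0.0997 in the 5 TFCO samples, without overlap, as 10.1% of genes were in this direction, with a difference of -1.14 (SE 0.13, adjusted p = 0.00066 in limma). Of the 12 other receptors tested, Fzd6, a Frizzled receptor, was higher in TFCOs, with 1.14 to 1.99 against 0.135 and 0.0688, a difference of 1.16 (SE 0.25, adjusted p = 0.0231). Of 4 other targets tested, Sox9, a transcription factor of progenitor cells in many epithelia, was higher, with 6.67 to 11.2 against 1.63 and 2.18, a difference of 1.71 (SE 0.44, adjusted p = 0.0420). No gene of the other 5 lists was called in either direction, with 1 R-spondin, 2 secretion genes, 10 of the destruction complex and Dishevelled, 7 nuclear partners and 7 antagonists tested. The median difference was 0.12 for the 9 members, 0.34 for the other receptors and 0.28 for the destruction complex, beside 0.12 for all genes tested. No listed gene was called between late and early TFCOs. In proliferating cells Fzd1 was lower in 5 of 5 samples (0.283 to 0.792 against 0.580 to 1.72, difference -0.41, SE 0.10, adjusted p = 0.0408 in limma) and no other listed gene was called.

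In the tissue, Wnt4, Sox9 and Cd44 were lower in endothelial-like cells by differences of -0.99, -1.20 and -1.36 and in mural-like cells by -1.18, -1.38 and -1.31 than in TFC-like cells (adjusted p between 0.00253 and 0.0162 in limma). Cd44 was not lower in immune-like cells, with 3.12 against 2.43. Wls, which escorts Wnt ligands to the surface, was lower in endothelial-like cells (-0.91, adjusted p = 0.0489). The repressor Tcf7l1 was higher in both classes (1.25 and 1.76), as was the receptor Fzd4 (1.40 and 1.19). Bambi (0.28) and Ccnd1 (0.81) were higher in endothelial-like cells, and Ror1 (1.53), Lrp5 (0.84) and Axin1 (0.79) in mural-like cells.

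The genes most like each member were ranked by Pearson correlation over 19 means by sample and cell class, among 17805 genes, as a description. The means share libraries and depth, and 10 of them come from TFCO samples. For Ctnnb1 they were Ywhaq (0.946), Prkar1a (0.903) and Nckap1 (0.898), for Lgr4 Clmn (0.921), Cystm1 (0.912) and Atp6v1c1 (0.910), and for Lrp6 Sod3 (0.910), Pi4k2b (0.907) and Wasf3 (0.900). For Lgr5, C2 (0.870) and Tulp3 (0.841) are given, and Tulp3 had a well barcode correlation of 0.376. For Tcf7l2 they were Gpc6 (0.894), Ankrd12 (0.886) and Angpt1 (0.884), for Znrf3 Scyl2 (0.881), Naa30 (0.864) and Cdk2ap1 (0.860), and for Rnf43 Klhl14 (0.840, well barcode correlation 0.462), Capn6 (0.814) and B230118H07Rik (0.804). For the other members they were, for Axin2, Rps16-ps2 (0.873), Gm10036 (0.853) and Gm5805 (0.828), for Lef1 Gm36814 (0.880), Klhl31 (0.866) and Iltifb (0.856), and for Nkd1 Sult2a3 (0.780) and Mpi (0.745). No member was among the 3 genes most like another member.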

How the data were processed

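From the authors, 1 expression matrix covering 30879 genes and 2590 cells was used, on a natural log scale (UMIs of a gene per 10000, with 1 added), together with a deposited list of 384 well barcodes. Per the labels' processing notes, Trim Galore 0.4.3, STAR 2.5.3a and Seurat were used with GRCm38. The log was undone and each cell divided by its smallest value, which gave whole numbers (tolerance 0.01) for 100% of non-zero values, taken as UMIs. Total depth was 1406925 to 4703472 UMIs a sample.

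Cells of at least 1000 UMIs were clustered (scanpy 1.11.5) without the members, the pathway lists and genes with a barcode correlation over 0.05, and named from marker lists. In tissue, 20 TFC-like cells with a higher score of C cell, parathyroid or erythroid markers were set aside. Means over cells were compared on log2(mean UMIs per 10000 + 1) with limma 3.58.1 (R 4.3.3, trended empirical Bayes), with Benjamini-Hochberg adjustment and a threshold of 0.05. TFCOs and tissue were fitted in 1 model with a weight of 1.57 for TFCO and 0.325 for tissue samples, for genes whose group means averaged 0.1 or more per 10000. Proliferating cells and tissue classes were compared with the sample as a term and equal weights, for genes at 0.1 or more in at least 2 means. Both methods were tested on simulated data. A count of 0 in a cell class is given with the level that 3 UMIs would have in the summed UMIs of that class. Intervals and floors cover counting error only. No doublet caller was run, as single cells were sorted into wells.

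The members, lists and tests were chosen with earlier results of these data known. All members, the 3 genes most like each, and listed pathway genes past the threshold (at most 8 a comparison) are named. For Lgr5 and Nkd1, 1 of the 3 is not reported here. Gene positions are from GENCODE M21 (GRCm38). Alternatives were another pseudocount, filter, depth, scaling and set of wells, thinning, and leaving out each sample.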

Additional observations from a re-analysis of the deposited data

How the results depend on the processing

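No paired analysis was possible because the replicate numbers only follow the order of the samples and name no shared animal, culture or plate. Among 655 recomputed values of the members, 555 were labelled the same, 57 reversed, 21 newly passed, 20 no longer passed and 2 moved. No value labelled as reversed had passed before. For endothelial-like and mural-like cells, differences in 1 tissue sample alone had no test. They were labelled the same by construction, also where the 2 samples differed in direction, and are not listed below. Examples are Lgr4 in mural-like cells (0.54 and -0.69) and Lef1 in endothelial-like cells (0.61 and -0.97). The causes were not tested, apart from the 10 barcodes left out and the samples left out, which act by construction. The TFC-like class of tissue is the limit of depth: 91 cells, with 0 to 15 UMIs of each member in tissue 1.

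The 611 genes called between TFCOs and tissue became 977 with a pseudocount of 0.1, 1171 with a filter of 0.5, 4184 with equal weights, 204 with UMIs summed over cells, 406 after thinning and 209 with cells of at least 2000 UMIs. Leaving out a sample gave 281 (without early 1) to 5536 (without tissue 2, with equal weights, the lone tissue sample assumed to vary like the others). The 2 genes called between late and early became 5 with a pseudocount of 0.1 and 1 with a filter of 0.5, no filter, equal weights, summed UMIs (with or without the 2 deepest cells of tissue 2), thinning, at least 2000 UMIs or matched barcodes, and 1 to 1054 (without early 1) when a sample was left out. For proliferating cells 345 became 76 with no filter, 745 summed, 100 thinned and 168 to 436 without a sample. For endothelial-like cells 667 became 149 thinned and 1339 with at least 2000 UMIs, and for mural-like cells 803 became 438 with no filter, 147 thinned and 1565 with at least 2000 UMIs. In these 2 comparisons leaving out a tissue sample leaves no residual degrees of freedom, so no count was made. The share of genes with a barcode correlation above 0.1 was 17.5% in tissue cells.

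Values that reversed were, for TFCOs against tissue, Rnf43 (-0.11) and Tcf7l2 (-0.0742) after centring, Lef1 (0.0800) with at least 2000 UMIs, and Lef1 (0.0072) and Tcf7l2 (-0.0366) without 10 barcodes. Without a sample, Rnf43 ran from -0.0928 to 0.10, Nkd1 from -0.27 to 0.0582, Lef1 from -1.09 to 0.24 and Tcf7l2 from -0.0936 to 0.16. For late against early, Lgr4 was -0.0083 summed, with or without the deepest cells, Rnf43 was 0.0338 thinned and 0.0569 with matched barcodes, and Lef1 was 0.0394 thinned. Nkd1 was 0.0050 centred, 0.0886 summed with or without the deepest cells, 0.11 thinned, 0.0179 with at least 2000 UMIs and 0.12 with matched barcodes. Without a sample, Lgr4 ran from -0.0249 to 0.21, Rnf43 from -0.13 to 0.0141 and Nkd1 from -0.0849 to 0.0599.

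In proliferating cells, Lgr5 was 0.0466 summed and 0.0158 with matched barcodes, Axin2 0.19, Rnf43 -0.20 and Nkd1 -0.19 thinned, and Nkd1 -0.0299 summed. Without a sample, Lgr5 ran from -0.14 to 0.0779, Axin2 from -0.0540 to 0.0478 and Rnf43 from -0.0064 to 0.0796. In endothelial-like cells, Axin2 was -0.0368 centred, Znrf3 0.11 thinned and 0.10 with at least 2000 UMIs, and Rnf43 0.10 with at least 2000 UMIs. Lef1 was 0.28 with a pseudocount of 0.1, 0.22 summed, 0.23 with at least 2000 UMIs and 0.29 without 10 barcodes. Lrp6 was -0.0787 centred, -0.37 summed, -0.24 thinned and -0.33 with at least 2000 UMIs. In mural-like cells, Axin2 was -0.0209 centred, Znrf3 0.12 with at least 2000 UMIs, Nkd1 -0.29 summed, -0.10 thinned and -0.44 with at least 2000 UMIs, and Lrp6 -0.10 summed and -0.12 with at least 2000 UMIs.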
